A study of Mus musculus with 58 samples.

Results

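Liver tumors of the highest and of the lowest Afp level were compared over all other genes. The tumors were chosen by their measured log2 value of Afp: all 29 tumor arrays were ranked by it, the 10 highest were called Afp-high and the 10 lowest Afp-low, and the 9 tumors between them were kept aside. These 20 arrays are part of 58, of which 29 were made from tumors and 29 from livers labelled normal. Afp itself chose the arrays, so its values are a description and were not tested.

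All mice had received an adeno-associated virus (AAV) vector, used for gene transfer, as neonates and were sampled as adults, the normal livers included. They were of mixed FVB/NJ, C57BL/6 and 129/Sv background and of both sexes. The study's question was whether hepatocellular carcinoma arose in part from vector inserted into the mouse genome. The groups are 10 Afp-high tumors, 9 middle tumors, 10 Afp-low tumors and 29 normal livers, and no untreated mice are among these arrays. The labels used here give no vector dose and no exact age. The title of normal 4 also carries the mark GFP, which that of tumor 4 of the same animal does not. Some titles carry a genotype mark without naming the gene: 1 Afp-high and 3 Afp-low tumors were marked -/-, and 2 Afp-high and 1 Afp-low tumors +/-. Afp-high tumor 19 had no mark, but normal 17 of the same animal was marked -/-. Normal 20, normal 22, normal 27 and middle tumor 28 were also marked -/-. The mark +/- was also on middle tumors 4 and 13 and on normal 4, 7, 13, 15 and 26. By the titles the 20 tumors came from 20 animals. A female label was given to 4 of 9 labelled Afp-high and 4 of 10 Afp-low tumors, and a normal liver of the same animal was on an array for 6 of 10 tumors in each set (two-sided Fisher's exact test, p = 1.0 for both).

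Afp encodes alpha-fetoprotein, the albumin-like protein that fetal liver secretes into the blood. Its gene lies beside that of albumin, is silenced in liver soon after birth, and is switched on again in many hepatocellular carcinomas, where the protein in blood serves as a tumor marker. The transcription factors Zhx2, Zbtb20 and Zfhx3 are known repressors of Afp, and hepatocyte factors of the HNF1 type bind its promoter.

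The 250 bases before the annotated start of Afp are shown because the ranking rests on this gene (RefSeq, GRCm38.p6, chr5:90490464-90490713, plus strand). Capitals mark a match to an HNF1-type motif, at -105 to -96. The motif searched was these letters with any base allowed at the seventh. Both strands were searched, and 122 of 32851 promoter windows (0.371%) held it.
Afp: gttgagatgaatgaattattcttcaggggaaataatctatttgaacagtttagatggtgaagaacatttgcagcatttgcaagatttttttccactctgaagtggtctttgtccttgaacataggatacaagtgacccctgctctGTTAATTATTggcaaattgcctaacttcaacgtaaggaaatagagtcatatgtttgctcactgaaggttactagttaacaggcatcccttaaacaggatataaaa
Slc7a11 had the largest difference in level of the 10 genes of smallest p that were higher in Afp-high tumors (chr3:50443614-50443863, minus strand, same source). Capitals mark TGATGCAA, the composite letters bound by Atf4 with a C/EBP partner, or their reverse complement. They stood at -66 to -59 and at -47 to -40.
Slc7a11: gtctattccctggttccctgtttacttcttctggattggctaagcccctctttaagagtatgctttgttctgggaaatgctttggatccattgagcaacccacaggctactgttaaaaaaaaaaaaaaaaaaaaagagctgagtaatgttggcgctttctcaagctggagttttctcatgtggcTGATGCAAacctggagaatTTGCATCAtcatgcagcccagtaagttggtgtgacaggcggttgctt
Short stretches around single matches are shown for both other genes of those 10 that had one, Sgsm3 (chr15:80977639-80977678, plus strand) and Vldlr (second annotated start, chr19:27216804-27216843, plus strand).
Sgsm3: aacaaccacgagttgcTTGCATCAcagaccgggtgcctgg
Vldlr: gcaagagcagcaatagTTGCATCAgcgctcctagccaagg
Of those 10 genes 9 had a promoter in the table. On both strands 260 of 32851 promoter windows (0.791%) held these letters. The windows of Psph, Tmem62, Wnt4, Dnajc10, Scd3 and Parm1 held none, which says only that the letters are not in those 250 bases. These matches are a description. The motif was searched after the expression values had been seen.

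In the Afp-high set Afp was lowest at 9.78 in tumor 5, had 10.67 and 10.58 in its 2 central arrays, tumors 23 and 19, and was highest at 12.69 in tumor 16. In the Afp-low set it was lowest at 6.91 in tumor 24, had 7.43 and 7.41 in its 2 central arrays, tumors 22 and 20, and was highest at 8.42 in tumor 6. The set means were 3.07 apart on the log2 scale, an 8.38-fold difference in signal, and tumor 16 stood 55.0-fold above tumor 24. Just outside the upper set came tumor 25 at 9.43, a gap of 0.35, and just outside the lower set tumor 14 at 8.54, a gap of 0.12, so the levels run on without a break at either border. Normal livers other than normal 27, described next, lay between 6.70 and 8.51 with a median of 7.10. All 10 Afp-high tumors were above all 28 of these normal livers and 0 Afp-low tumors were, while 2 Afp-low tumors were below their median. The normal liver at 8.51 was that of the animal with tumor 16, and the next highest was at 7.47.

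**Figure D1:**
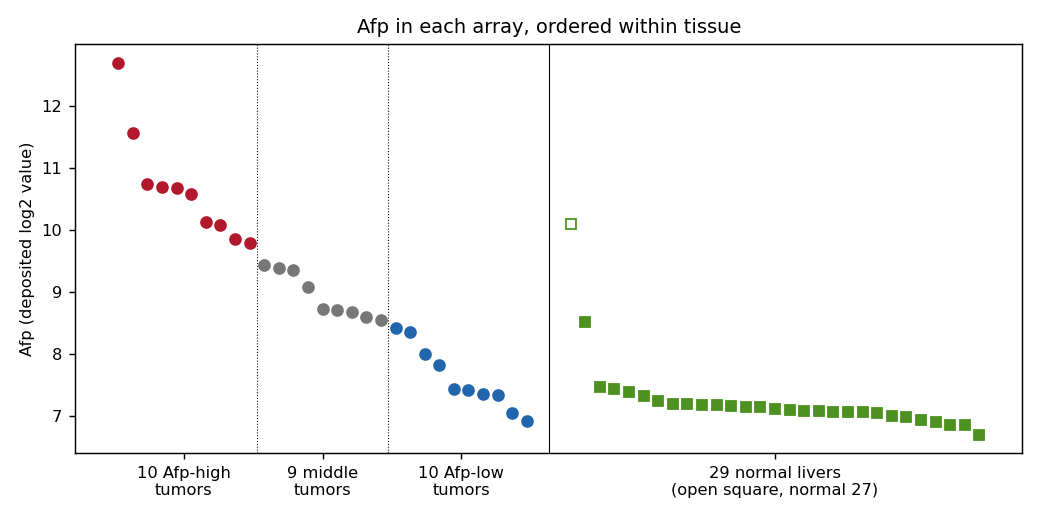
Afp on the deposited log2 scale (y axis) in each of 58 arrays, ordered from high to low within tumors and within normal livers (x axis); dotted lines mark the borders of the sets. Levels in tumors run on from 12.69 to 6.91 without a break at either border, and 28 of 29 normal livers lie at or below 8.51.

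Several arrays stood apart. Tumor 9, in the Afp-low set, had a mean over 32 plasma protein genes of hepatocytes of 7.25, against 11.22 or more in every other array of the study. Its mean over 15 T and NK cell markers was 9.22 and over 8 B and plasma cell markers 11.7, each the highest of all 58 arrays. Its hepatocyte and lymphocyte markers were thus unlike those of any other array, and go against a tumor made of hepatocytes. Tumor 20, also Afp-low, had a mean of 10.33 over 12 neutrophil markers, and normal 19 of the same animal had 10.5, against an Afp-low median of 6.54. The array labelled normal 27 had an Afp of 10.09 and differed from the other 28 normal livers in genes by which the tumors differ, among them Slco1b2, a hepatocyte uptake transporter, at 5.81 against 10.44 to 12.08. Across the study 7 arrays went against their gender label, 2 of them Afp-high tumors and 0 Afp-low tumors. Afp-low tumors 1 and 24 were like normal liver in Slco1b2, at 12.05 and 12.09. In Cyp11a1, a steroid synthesis gene, they had 6.49 and 6.75, and tumor 20 had 6.59. Those 28 normal livers had 6.18 to 6.97, and all 10 Afp-high and 7 Afp-low tumors were above them. No comparison of the 2 sets left out both tumor 1 and tumor 24. Values without tumors 9 and 20, normal 27 or the tumors against their gender label are given beside most of the results that moved with them. Array medians lay between 6.72 and 7.15, and the number of arrays limits the precision. In bulk tissue, fewer cells of a type and less RNA per cell cannot be told apart.

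Between the 10 Afp-high and 10 Afp-low tumors 2 genes passed an adjusted p under 0.05, both higher in Afp-high tumors (0.00902% of 22179 tested), and 0 were lower. At an unadjusted p under 0.05, 1346 genes were higher (6.07%) and 535 lower (2.41%). The difference was above 0 in 51.9% of genes and below 0 in 48.1%, with a median over all genes of 0.01.

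Psph, which encodes phosphoserine phosphatase, the enzyme of the last step of serine synthesis, had a log2 value between 8.05 and 9.08 with a median of 8.61 in Afp-high tumors, against 7.53 to 8.0 with a median of 7.83 in Afp-low tumors. Every Afp-high tumor was above every Afp-low tumor. The difference was 0.77 (SE 0.12), or 1.71-fold, with an adjusted p of 0.0322 by limma. Tmem62, a membrane protein gene, lay between 9.06 and 9.94 with a median of 9.55 in Afp-high tumors and between 8.28 and 9.07 with a median of 8.75 in Afp-low tumors. The sets overlapped in 1 Afp-high tumor, and the difference was 0.79 (SE 0.13, adjusted p = 0.0322). Both calls were lost when arrays were centred on their medians (adjusted p = 0.0544 for each) and without tumors 9 and 20, where Psph differed by 0.74 and Tmem62 by 0.74 (adjusted p = 0.0862 for each). With 1 tumor left out at a time the count of genes called higher ran between 0 and 5. It was 0 without any one of the Afp-low tumors 1, 20, 22 and 24 or of the Afp-high tumors 5, 12, 16, 23 and 29. It was 1 without tumor 21, 4 without tumor 17, 18 or 27, and 5 without tumor 7.

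**Figure D2:**
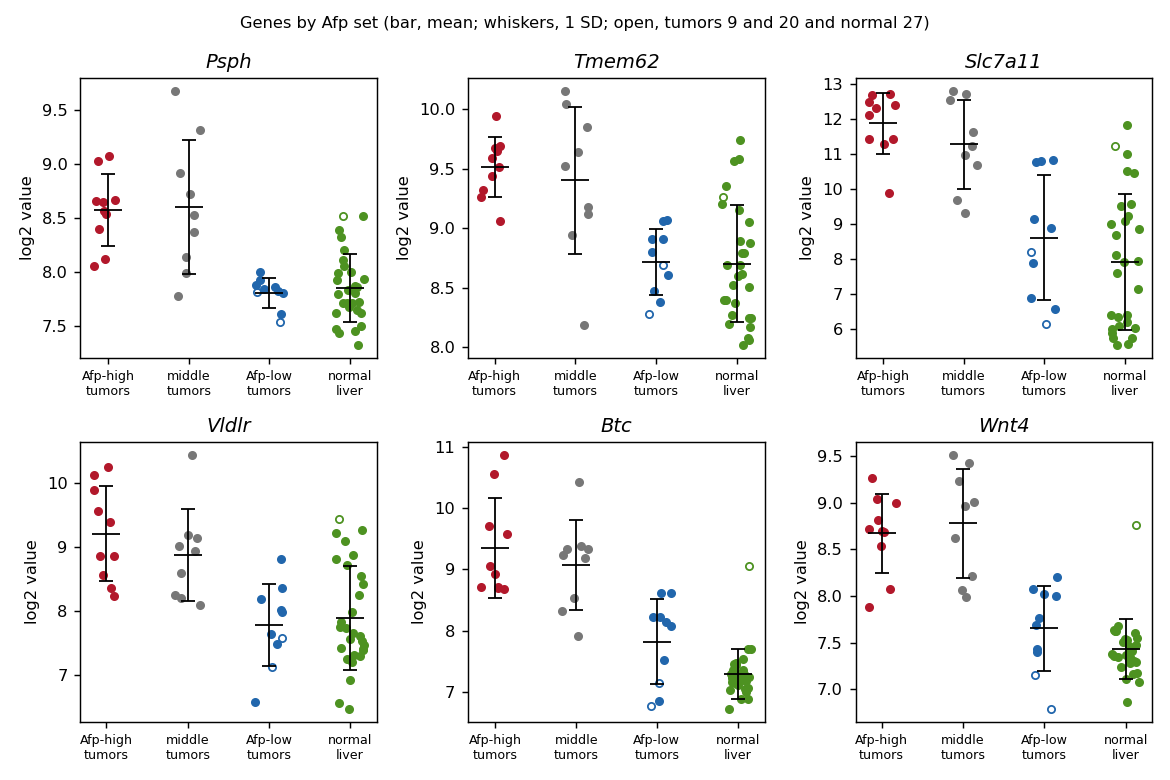
Log2 values (y axes) of 6 genes in Afp-high, middle and Afp-low tumors and in normal liver (x axes), each point 1 array; horizontal bars are means and whiskers 1 SD. In Psph the lowest Afp-high tumor, at 8.05, lies above the highest Afp-low tumor, at 8.0, and the middle tumors span 7.78 to 9.68.

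Of the 10 genes of smallest p with higher values in Afp-high tumors, the other 8 were not called. The widest apart was Slc7a11, the cystine importer that feeds glutathione synthesis. It lay between 9.89 and 12.71 with a median of 12.22 in Afp-high tumors and between 6.15 and 10.82 with a median of 8.55 in Afp-low tumors. Of the Afp-high tumors, 9 were above all Afp-low tumors, and tumor 18 was not. The difference was 3.26 (SE 0.58), or 9.58-fold, at an adjusted p of 0.0662 by limma, and 2.903 without tumors 9 and 20 (adjusted p = 0.225). With each tumor set against its own normal liver, in 6 against 6 animals, it was 1.43 (SE 0.98) and not called. The difference between the tumors themselves passed the threshold when tumor 6, 17, 18 or 27 was left out. Among normal livers Slc7a11 was itself variable, between 5.55 and 11.82.

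Vldlr, a receptor for triglyceride-rich lipoproteins, lay between 8.24 and 10.26 in Afp-high tumors and between 6.58 and 8.82 in Afp-low tumors, a difference of 1.43 (SE 0.29, adjusted p = 0.125) and 0.64 against each tumor's own normal liver. Wnt4, a secreted Wnt ligand, lay between 7.88 and 9.27 against 6.79 to 8.20, a difference of 1.02 (SE 0.19, adjusted p = 0.0908). The sets overlapped in both genes. Dnajc10, a disulfide reductase of the endoplasmic reticulum, differed by 0.84 (SE 0.17), Sgsm3, a modulator of small G proteins, by 0.58 (SE 0.10, adjusted p = 0.0519), and Scd3, a stearoyl-CoA desaturase, by 0.98 (SE 0.20). Parm1 differed by 1.44 (SE 0.29) and Osbpl10, of the oxysterol-binding protein family, by 0.71 (SE 0.14). The adjusted p was 0.125 for Dnajc10, Scd3, Parm1 and Osbpl10.

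Over all genes, 3 had every Afp-high tumor above every Afp-low tumor (0.0135% of those tested), and 0 had every one below. Psph was one. The other two, named because their values did not overlap, were Btc and Meltf. Btc encodes betacellulin, a ligand of the epidermal growth factor receptor. It lay between 8.68 and 10.86 in Afp-high tumors and between 6.78 and 8.62 in Afp-low tumors, a difference of 1.52 (SE 0.31, adjusted p = 0.125). Meltf, which encodes the iron-binding melanotransferrin, lay between 6.97 and 7.67 against 6.64 to 6.94, a difference of 0.44 (SE 0.09, adjusted p = 0.125).

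No gene was called lower in Afp-high tumors. The 10 of smallest p had adjusted p between 0.180 and 0.230. The 3 widest apart among them were Cmah, Mup-ps12 and Serpinb1a. Cmah, the hydroxylase that makes N-glycolylneuraminic acid, lay between 6.83 and 10.22 with a median of 7.25 in Afp-high tumors and between 8.59 and 11.28 with a median of 9.55 in Afp-low tumors, a difference of -1.75 (SE 0.43). Mup-ps12, a pseudogene of the major urinary proteins whose copies are so alike that probes can share signal, differed by -1.56 (SE 0.38). Serpinb1a, an inhibitor of neutrophil proteases, differed by -1.43 (SE 0.37), and by -0.57 against each tumor's own normal liver. Gypc, a membrane protein of red cells and other cells, had the smallest p, with a difference of -0.49 (SE 0.11). The remaining 6 (Rnase11, Ablim3, Olfr1466, Zfp354b, 4930405O22Rik and Fem1al) differed by -0.67 to -0.27.

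None of the known repressors of Afp was called between Afp-high and Afp-low tumors. Zhx2, whose natural loss in one mouse strain keeps Afp on after birth, lay between 9.15 and 10.26 in Afp-high tumors and between 8.42 and 10.31 in Afp-low tumors, a difference of 0.11 (SE 0.19, adjusted p = 0.898) whose sign turned under several settings. Zfhx3 differed by 0.17 (SE 0.18, adjusted p = 0.839), again with a sign that turned. Zbtb20, a zinc finger repressor that shuts Afp off in the postnatal liver, lay between 9.15 and 9.97 with a median of 9.50 in Afp-high tumors and between 9.38 and 10.46 with a median of 9.93 in Afp-low tumors. That difference, -0.34 (SE 0.15), had an unadjusted p of 0.0351 and an adjusted p of 0.547. Against normal liver, Zbtb20 was called lower in Afp-high tumors, at -0.48 (adjusted p = 0.000904 by limma). In Afp-low tumors it differed from normal liver by -0.14 and was not called (adjusted p = 0.483). Zhx2 and Zfhx3 were not called against normal liver in either set.

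Neither the neighbours of Afp nor other targets of Zhx2 were called between Afp-high and Afp-low tumors. Alb, the adjacent albumin gene, lay between 13.29 and 13.62 in Afp-high tumors and between 10.47 and 13.83 in Afp-low tumors. The difference in Alb was 0.19 (SE 0.31) with all tumors and -0.12 without tumor 9, which held the value of 10.47. Afm, the albumin family member afamin, lay between 6.23 and 9.49 in Afp-high tumors and between 6.31 and 10.81 in Afp-low tumors, a difference of -1.04 (SE 0.49, adjusted p = 0.574), opposite in sign to that of Afp, and 0.14 when each tumor was set against its own normal liver. The pair of tumor 9, with Afm at 6.31 in the tumor and 10.82 in the normal liver, was kept in. Rassf6, farther along the locus, differed by 0.50 (SE 0.19, adjusted p = 0.453). Of 6 measured Zhx2 targets 3 were above 0 and 3 below. Lpl, lipoprotein lipase, differed by 0.83 (SE 0.34), and by 0.52 without tumors 9 and 20, and Cyp2a4, a steroid hydroxylase, by 1.60 (SE 0.74), of which 0.42 was left without tumors 9 and 20. Gpc3, which encodes the oncofetal marker glypican-3, lay between 6.48 and 8.71 against 6.18 to 7.45, a difference of 0.37 (SE 0.27, adjusted p = 0.747), and 0.23 without the tumors against their gender label.

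Markers of fetal liver and liver cancer other than Afp were mostly, but weakly, on the same side. Of 30 measured, 24 were above 0, against 51.9% of all genes, and 5 passed an unadjusted p under 0.05, against 6.07% of all genes, with 0 below at that level, 0 called and a median difference of 0.31. Igf2bp3, an RNA-binding protein of fetal tissue, lay between 7.18 and 8.99 in Afp-high tumors and between 6.65 and 7.77 in Afp-low tumors, a difference of 0.89 (SE 0.23, adjusted p = 0.230). Akr1b8, an aldo-keto reductase, differed by 0.82 (SE 0.21), Cd24a, a surface sialoglycoprotein, by 1.17 (SE 0.37) and Ly6d by 0.77 (SE 0.23), which was 0.21 against each tumor's own normal liver. Of the 5 transcripts measured in the Dlk1-Dio3 imprinted locus, a known site of AAV insertion in mouse liver tumors, 3 were above 0 and 2 below. Rian of that locus spread from 6.37 to 12.20 in Afp-high tumors and from 6.53 to 12.16 in Afp-low tumors, and its difference of 0.20 (SE 1.00) turned sign under several settings.

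Antioxidant genes under Nrf2, the transcription factor that drives them, stood on one side. All 18 measured targets were above 0, against 51.9% of all genes, and 10 had an unadjusted p under 0.05, against 6.07% of all genes, with 0 called and a median difference of 0.62. The mean over these genes ran from 10.39 to 11.26 in Afp-high tumors and from 8.35 to 10.81 in Afp-low tumors, and the 2 lowest of all arrays were tumors 9 and 20. Without those 2, the median was 0.37 with 16 above 0 and 2 below. Beside Slc7a11, Cbr3, a carbonyl reductase, differed by 1.53 (SE 0.32, adjusted p = 0.125) and Abcc4, an export pump for bile acids and conjugates, by 1.64 (SE 0.39, adjusted p = 0.199). Against each tumor's own normal liver Cbr3 differed by 0.80 and Abcc4 by 0.66.

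A list of 45 genes of the amino acid and endoplasmic reticulum stress response driven by Atf4, with Atf4 itself, was drawn up after the values had been seen and supports nothing by itself. Of 41 measured, 39 were above 0 (51.9% of all genes) and 25 had an unadjusted p under 0.05 (6.07% of all genes), and Psph alone was called. Their median difference was 0.54, 0.45 without tumors 9 and 20, and 0.26 against each tumor's own normal liver. Atf4 lay between 8.36 and 9.07 in Afp-high tumors and between 7.80 and 8.67 in Afp-low tumors, a difference of 0.50 (SE 0.11, adjusted p = 0.180). Slc1a4, a carrier of alanine and serine, lay between 8.62 and 10.34 against 7.10 to 9.60, a difference of 1.24 (SE 0.26, adjusted p = 0.125). Sesn2, a stress-induced inhibitor of mTORC1, differed by 0.69 (SE 0.16, adjusted p = 0.180), and by 0.10 against each tumor's own normal liver. The lists share genes: Slc7a11 is in both that of Nrf2 and that of Atf4, and Sesn2 is also a p53 target.

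Immediate early genes and p53 targets leaned the same way. Of 17 immediate early genes all were above 0, 8 with an unadjusted p under 0.05, at a median of 0.40 (over all genes these shares were 51.9% and 6.07%), and 16 of 17 were above 0 with arrays centred on their medians or quantile-normalized. Fos differed by 0.61 (SE 0.19), Atf3 by 0.93 (SE 0.29) and Ier3 by 1.02 (SE 0.44). When each tumor was set against its own normal liver, 11 of 17 were above 0, at a median of 0.07. Normal 16, one of those livers, had an immediate early mean of 10.38, against 9.88 in tumor 16 of the same animal. Of 17 p53 targets 15 were above 0 and 7 had an unadjusted p under 0.05, set against the same shares, at a median of 0.29 (0.18 without tumors 9 and 20 and 0.14 against each tumor's own normal liver). Pmaip1, which encodes the pro-apoptotic Noxa, differed by 0.46 (SE 0.11, adjusted p = 0.180) and Btg2, an antiproliferative gene, by 0.86 (SE 0.33). No member of these 2 lists was called.

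Cell cycle genes were mostly lower in Afp-high tumors. Of 38, 33 were below 0, against 48.1% of all genes, 4 of them with an unadjusted p under 0.05 against 2.41% of all genes, none was called, and the median was -0.26. E2f8, an E2F family repressor, lay between 6.26 and 8.62 in Afp-high tumors and between 7.12 and 8.42 in Afp-low tumors, a difference of -0.81 (SE 0.26, adjusted p = 0.346). Foxm1, an activator of mitotic genes, differed by -0.32 (SE 0.14). Against each tumor's own normal liver these differences were -0.20 and -0.13, and the median of the list was -0.17. Set against all normal livers, 29 of the 38 genes rose in Afp-high tumors, where 13% of all genes did, and 35 in Afp-low tumors, where 4.85% of all genes did. The medians of the 38 were 0.58 above normal liver in Afp-high and 0.82 in Afp-low tumors. Without tumors 9 and 20 these medians were 0.58 and 0.73, so the sets lay closer together.

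Genes of mature liver split. Among 25 genes of pericentral hepatocytes 18 were below 0, against 48.1% of all genes, at a median of -0.33, and among 15 complement genes 13 were below 0, at a median of -0.27 (-0.56 without tumors 9 and 20). Rgn, regucalcin, lay between 5.84 and 11.03 with a median of 6.71 in Afp-high tumors and between 5.76 and 11.90 with a median of 8.86 in Afp-low tumors, a difference of -2.07 (SE 0.72, adjusted p = 0.409). Cyp2c50, a P450 enzyme, differed by -1.72 (SE 0.71) and Slco1b2, a hepatocyte uptake transporter, by -1.86 (SE 0.82). Mup3, a male-biased urinary protein gene, differed by -2.97 (SE 0.83, adjusted p = 0.275). Cyp2a5, nearly identical to Cyp2a4 in sequence, went the other way by 1.64 (SE 0.55), and 0.77 was left without tumors 9 and 20. C8a, a subunit of the membrane attack complex, differed by -1.51 (SE 0.54), C6, another, by -1.14 (SE 0.43), Pigr, the receptor that carries IgA, by -1.34 (SE 0.60) and Otc, a urea cycle enzyme, by -1.50 (SE 0.65). Most of these differences were smaller or gone when each tumor was set against its own normal liver. The sign turned for Mup3 (0.66), Cyp2c50 (0.14) and C8a (0.24). The differences in Rgn (-0.026), C6 (-0.024) and Otc (-0.023) were then close to 0, and those in Slco1b2 (-1.06), Pigr (-0.74) and Cyp2a5 (0.61) were smaller. In Slco1b2 the 6 and 6 tumors were themselves only -1.23 apart, and their normal livers -0.17. The medians of the pericentral and complement lists were then -0.03 and 0.24, with 15 of 25 and 5 of 15 below 0. The 6 Afp-low pairs include tumor 9, at 6.82 in C8a, 6.30 in Otc and 7.54 in Mup3. Its own normal liver had 12.42, 11.29 and 13.58. This comparison was not made without tumor 9, so the turned signs and the values near 0 may rest on 1 array. The lists of these genes were mixed. Of 43 P450 genes 28 were below 0, but at an unadjusted p under 0.05, 3 were higher and 2 lower. Cyp2d9, one of the 3, differed by 1.23. Of 25 bile acid genes, Slco1b2 among them, 12 were above and 13 below 0. Pigr and Otc went against most of their lists: 10 of 16 periportal and 10 of 12 gluconeogenesis and urea cycle genes were above 0. Of 32 plasma protein genes 22 were above 0, at a median of 0.21, with 0 at an unadjusted p under 0.05 in either direction. Without tumor 9, 2 of them were above 0 and the median was -0.25, so the sign of that list rests on 1 array.

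Markers of most other liver cells leaned toward the Afp-low tumors, but those of neutrophils did not. Of 12 neutrophil markers 6 were above 0 and 6 below, at a median of 0.01. Where 48.1% of all genes were below 0, those below were 13 of 16 macrophage, 16 of 19 stellate and fibroblast, 10 of 14 sinusoidal endothelial, 15 of 15 T and NK cell, and 8 of 8 B and plasma cell markers, with none called and medians between -0.57 and -0.23. Without tumor 9 the medians of the T and NK and of the B and plasma cell lists were -0.07 and -0.12. Lyz2, lysozyme of macrophages and neutrophils, differed by -0.85 (SE 0.32) and Timd4, a receptor of resident macrophages, by -0.86 (SE 0.37), or -0.56 without tumors 9 and 20, whereas Gpnmb, of lipid-laden macrophages, differed by 1.03 (SE 0.43), by 0.60 without tumors 9 and 20, and by 0.14 against each tumor's own normal liver. Of 12 markers of bile duct and progenitor cells 9 were above 0, at a median of 0.10. Whether other cells had a part in the gene differences was not tested.

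**Figure D3:**
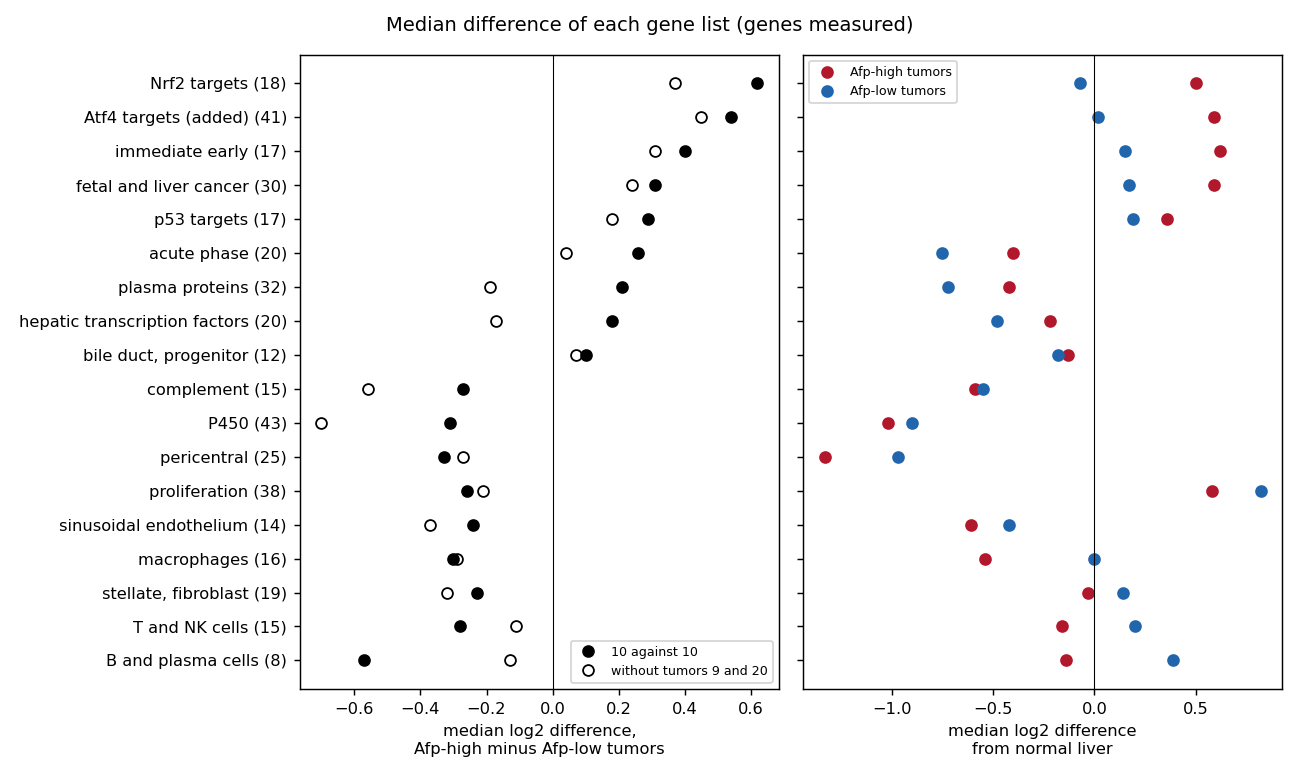
Median log2 difference over each gene list (rows, with the number of genes measured), on the left Afp-high minus Afp-low tumors with all tumors (filled) and without tumors 9 and 20 (open), on the right each set minus normal liver. The Nrf2, Atf4 and immediate early lists have medians of 0.40 to 0.62 on the left, and on the right those of the Afp-low tumors lie within 0.15 of normal liver with all arrays, though at 0.38, 0.16 and 0.35 without tumors 9 and 20.

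Against normal liver, 2890 genes rose (13%) and 1523 fell (6.87%) in Afp-high tumors. In Afp-low tumors 1076 rose (4.85%) and 804 fell (3.63%). Both comparisons share the 29 normal livers. Tumors 1 and 24, near normal liver in Slco1b2 and Cyp11a1, were kept in the Afp-low set. Without normal 27 the counts were 2963 and 1618 in Afp-high, and 1186 and 911 in Afp-low tumors. Without tumors 9 and 20 they were 3310 and 1928 in Afp-high, and 1981 and 1115 in Afp-low tumors, so the count of 1076 moved by over 1.5 times with those 2 arrays. In this fit over all 58 arrays the difference between Afp-high and Afp-low tumors itself passed for 128 genes that were higher (0.577%) and 7 that were lower (0.0316%), and without tumors 9 and 20 for 37 and 6.

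Which set lay nearer to normal liver differed by gene. Psph was 0.72 above normal liver in Afp-high tumors (adjusted p = 2.26e-05) and differed by -0.04 in Afp-low tumors (adjusted p = 0.897). Slc7a11 was 3.81 above normal liver in Afp-high tumors (adjusted p = 1.23e-06) and 0.78 in Afp-low tumors (adjusted p = 0.441), or 1.22 without tumors 9 and 20 (adjusted p = 0.169). Btc was 2.06 above normal liver in Afp-high tumors (adjusted p = 9.61e-11) and 0.55 in Afp-low tumors (adjusted p = 0.0871). The Afp-low value of Btc passed the threshold without normal 27, at 0.61 (adjusted p = 0.0331), and without tumors 9 and 20, at 0.80 (adjusted p = 0.00947). Wnt4 was 1.24 above normal liver in Afp-high tumors and 0.23 in Afp-low tumors (adjusted p = 0.331), and the Afp-low value was 0.43 without tumors 9 and 20 (adjusted p = 0.0418). Parm1 was 2.09 above normal liver in Afp-high tumors and 0.64 in Afp-low tumors (adjusted p = 0.0242), a call lost without tumors 9 and 20 (0.44, adjusted p = 0.0946). Serpinb1a went the other way, at 0.37 above normal liver in Afp-high tumors (adjusted p = 0.480) and 1.71 in Afp-low tumors (adjusted p = 0.000276). Of 18 Nrf2 targets 9 rose in Afp-high tumors, against 13% of all genes, and 0 in Afp-low tumors, against 4.85%. A count of 0 of 18 is near that smaller share. The Atf4 list was drawn up after the values had been seen. Of its 41 genes 24 rose and 1 fell in Afp-high tumors, while 0 rose and 3 fell in Afp-low tumors. Over all genes 6.87% fell in Afp-high and 3.63% in Afp-low tumors. Without tumors 9 and 20, 10 Nrf2 targets rose in Afp-high and 3 in Afp-low tumors, and 25 Atf4 genes rose in Afp-high and 7 in Afp-low tumors. Of all 22179 genes 3310 and 1981 then rose. Slco1b2 fell by 4.11 in Afp-high tumors (adjusted p = 8.63e-08) and fell by 2.27 in Afp-low tumors (adjusted p = 0.00471).

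The 9 middle tumors, which the comparison of 10 against 10 did not use, were mostly nearer to the Afp-high set in these genes. Psph averaged 8.58 ± 0.33 in Afp-high tumors (SD, n = 10), 8.61 ± 0.63 in middle tumors (n = 9) and 7.81 ± 0.14 in Afp-low tumors (n = 10). Slc7a11 averaged 11.88 ± 0.88 in Afp-high, 11.29 ± 1.27 in middle and 8.62 ± 1.78 in Afp-low tumors. Wnt4 averaged 8.67 ± 0.42 in Afp-high, 8.78 ± 0.59 in middle and 7.65 ± 0.46 in Afp-low tumors. Within the middle tumors, whose Afp spans 8.54 to 9.43, 0 genes had a slope on Afp at an adjusted p under 0.05, and 570 were above (2.57%) and 705 below 0 (3.18%) at an unadjusted p under 0.05. The slope of Slc7a11 there was -0.86 (SE 1.03).

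A linear term in Afp over all 29 tumors called 46 genes that were higher (0.207%) and 2 that were lower (0.00902%) with rising Afp. At an unadjusted p under 0.05 these shares were 7.46% and 3.49%. Its arrays include the 20 of the main comparison. Slc7a11 was called, at 0.98 log2 units per log2 unit of Afp (SE 0.17, adjusted p = 0.0164), as were Dnajc10 at 0.26 (SE 0.05, adjusted p = 0.0272), Btc at 0.48 (SE 0.09, adjusted p = 0.0288), Vldlr at 0.41 (SE 0.09, adjusted p = 0.0430) and Atf4 at 0.15 (SE 0.03, adjusted p = 0.0468). Psph and Tmem62 were not, with adjusted p of 0.160 and 0.0953. Called lower were Gypc and Olfr1466, an olfactory receptor gene, at adjusted p of 0.0387 each.

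By Pearson correlation over the 29 tumors, the genes most like Afp were Tmem237 (0.79), a ciliary protein, Prkab1 (0.77), a subunit of AMP-activated kinase, Hid1 (0.75), Dst (0.75), a cytoskeletal linker, and Dnajc10 (0.72). The least like it were Gypc (-0.68), Olfr1466 (-0.68), Ablim3 (-0.62), Olfr149 (-0.61) and Irf2 (-0.61). These are descriptions over arrays that share scale and tissue makeup. Prkab1 lay between 9.75 and 10.72 in Afp-high tumors and between 9.31 and 10.19 in Afp-low tumors, so the sets overlapped. Hid1 lay between 7.93 and 11.92 in Afp-high tumors, where the highest value was that of tumor 16, and between 6.87 and 8.69 in Afp-low tumors.

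**Figure D4:**
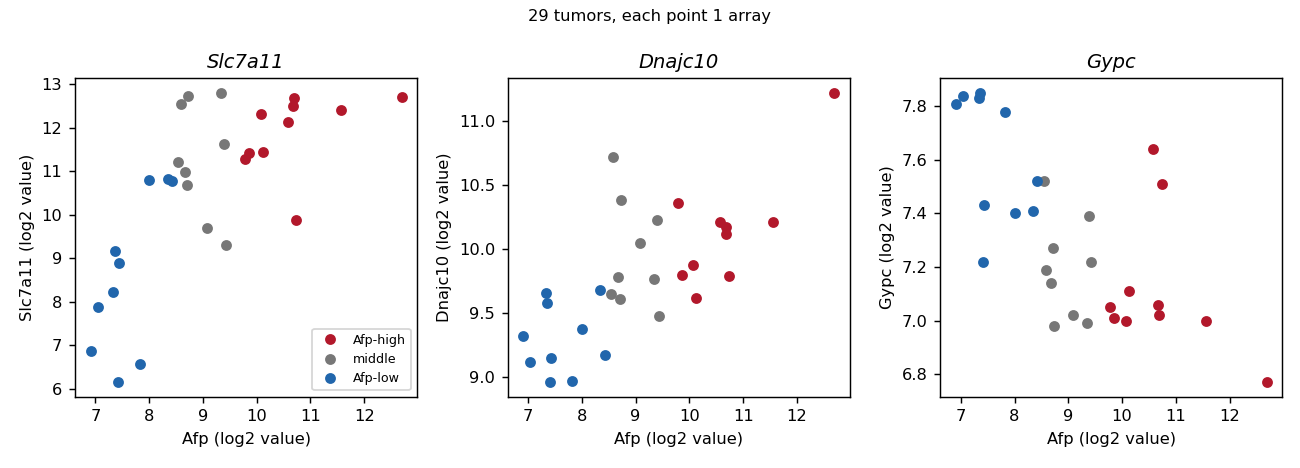
Log2 values of Slc7a11, Dnajc10 and Gypc (y axes) against the log2 value of Afp (x axes) in 29 tumors, coloured by set, each point 1 array. Slc7a11 lies at or above 9.89 in Afp-high tumors and spreads from 6.15 to 10.82 in Afp-low tumors.

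In the normal livers of the same animals, which played no part in the ranking, no gene was called. Some of the lists above lay on the same side as in the tumors and others did not. The share of all genes on the same side was not counted. The 6 normal livers from animals with an Afp-high tumor and the 6 from animals with an Afp-low tumor differed in 0 genes by limma, with 662 higher (2.98%) and 639 lower (2.88%) at an unadjusted p under 0.05. Afp averaged 7.33 ± 0.63 in the first 6 and 7.07 ± 0.12 in the second 6 (SD, n = 6 each), a difference of 0.26 with a two-sided exact permutation p of 0.42, where the smallest possible p is 0.00216. Normal 16, one of the first 6, had an Afp of 8.51. Its immediate early mean was 10.38, the highest of all normal livers, whose median was 8.60. None of these comparisons was made without normal 16. Between the 6 and 6 normal livers the median difference was 0.55 over the Nrf2 targets, 0.40 over the Atf4 genes, 0.32 over the immediate early genes and -0.22 over the cell cycle genes, against -0.03 over all genes. Among lists of the other sign than in the tumors were the periportal genes (-0.45) and the T and NK cell markers (0.10). Slc7a11 differed by 2.49 (SE 0.87, adjusted p = 0.745), Abcc4 by 1.53 (SE 0.22, adjusted p = 0.164), Vldlr by 1.36 (SE 0.30, adjusted p = 0.664) and Psph by 0.21 (adjusted p = 0.745).

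The tumors of these 12 animals had Slc7a11 3.92 apart, of which the 2.49 between their normal livers left 1.43. In Vldlr 2.00 between the tumors and 1.36 between the normal livers left 0.64. Other genes differed little between the normal livers: in Btc 2.06 between the tumors and 0.20 between the normal livers left 1.86 (SE 0.47), in Wnt4 1.11 and 0.10 left 1.01 (SE 0.29), and in Slc1a4 1.48 and 0.04 left 1.45 (SE 0.34). In Psph 0.89 and 0.21 left 0.68 (SE 0.21). Of the 68 genes examined other than Afp, the difference against the own normal liver was smaller than that of 10 against 10 tumors by over 1.5 times in 22, of the other sign in 6 and larger by over 1.5 times in 5. No gene was called in that comparison.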

How the data were processed

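RNA of 29 liver tumors and 29 normal livers was measured on Affymetrix whole-transcript arrays. The deposited log2 values, one for each of 41345 transcript clusters, come from the authors' run of Affymetrix Expression Console (named in the submitters' processing notes, per the labels). Which release, summary method and build they used is not given in the labels or files used here. Values ran from 2.91 to 14.08, and 23521 clusters with 1 gene symbol in the platform table gave 22180 genes (for 1082 genes with several clusters, that of the highest mean). Tests used limma 3.58.1 with statmod 1.5.0 in R 4.3.3 (lmFit, then eBayes with the intensity trend), p-values were adjusted by Benjamini-Hochberg over 22179 genes other than Afp, and calls were made at an adjusted p under 0.05. The steps were tested on simulated data with known changes.

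Groups follow the tissue label and the Afp rank. Animals were read from the titles, and the comparison with normal liver had the animal as a random block (correlation 0.152) because the titles name the same animal for 18 pairs. Tumors 22 (Afp-low) and 26 (middle) were taken as 1 animal. Sequences are from RefSeq tables of GRCm38.p6. Named genes were those called, the smallest p up to 10 each way, up to 3 members and the widest difference of each list, and the 5 highest and 5 lowest correlations. Members, lists and tests were chosen with earlier results of these data known. Scaling, filters, weights, covariates, set sizes and left-out arrays were varied. Scan batches were not examined, since scanner files were not used here.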

Additional observations from a re-analysis of the deposited data

Results flagged for a closer look

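Within a set of tumors, or within the 6 matched normal livers of each kind, the gap of the highest or lowest array to its neighbour was compared with the whole range. Of 345 sets of values examined 35 had a gap beyond the limit of Dixon's test, and chance alone gives about 1 in 20. The share of the range taken by the gap is given with each.

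Tumors held 16 of the 35 gaps, and tumor 9 gave 8 of them. It was the lowest Afp-low tumor in Alb (10.47, next 13.45, share 0.885), Otc (6.30, next 9.96, share 0.707), C8a (6.82, next 10.08, share 0.682), Pigr (7.49, next 10.03, share 0.539), C6 (8.0, next 9.08, share 0.515), Fos (6.55, next 7.19, share 0.476) and Afm (6.31, next 8.41, share 0.468). It was the highest in Cd3g, a T cell receptor component, at 12.26 against 9.42 for the next (share 0.468).

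Among Afp-high tumors, tumor 16 was highest in Hid1 (11.92, next 9.86, share 0.515) and Dnajc10 (11.22, next 10.36, share 0.539), and it also had the highest Afp. Tumor 19 was highest in Rgn (11.03, next 7.72, share 0.638) and Cyp2c50 (10.72, next 7.45, share 0.648), both genes of mature hepatocytes. Tumor 15 was highest in Jchain, the joining chain of antibodies (9.37, next 6.64, share 0.689), and tumor 18 lowest in Slc7a11 (9.89, next 11.28, share 0.494). Among middle tumors, tumor 13 was highest in Vldlr (10.44, next 9.19, share 0.530) and tumor 2 lowest in C6 (6.44, next 8.0, share 0.504).

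Normal livers of the same animals held the other 19 gaps. Normal 16, from the animal of tumor 16, was the highest of the 6 in Ier3 (12.37, next 8.61, share 0.836), Parm1 (8.03, next 7.40, share 0.738), Gpc3 (8.56, next 7.09, share 0.688), Btg2 (11.25, next 8.91, share 0.678) and Fos (8.64, next 7.65, share 0.674), and the lowest in Afm (7.53, next 9.83, share 0.773), Otc (6.15, next 9.70, share 0.737) and C8a (7.27, next 9.85, share 0.628). Normal 15 of the same 6 was highest in Gypc (9.14, next 7.88, share 0.723). Among normal livers of animals with an Afp-low tumor, normal 19, from the animal of tumor 20, was lowest in Alb (13.64, next 13.78, share 0.793), Afm (9.13, next 10.50, share 0.725) and Cyp2a4 (6.67, next 9.92, share 0.651), and highest in Gpc3 (8.49, next 7.02, share 0.745) and Ier3 (10.30, next 8.50, share 0.649). Normal 1 was lowest in C8a (9.46, next 11.82, share 0.800) and Irf2 (10.10, next 10.42, share 0.633), and highest in Gpnmb (8.06, next 7.37, share 0.751). Normal 7 was highest in Jchain (10.89, next 7.35, share 0.712) and normal 8 in Rian (7.62, next 6.40, share 0.711).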

How the results depend on the processing

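The 2 genes called higher became 0 with arrays centred on their medians, with quantile normalization, with 14 against 14 tumors, without tumors 9 and 20, and with each tumor minus its own normal liver. They became 1 higher and 1 lower with 5 against 5, 4 and 0 without tumors against their gender label, 5 and 0 without these and tumors 9 and 26, 11 and 3 with array weights, and 46 and 2 with a linear term. With 1 tumor left out the count called higher ran from 0 to 5, and that of the middle slope from 0 to 1 (without tumor 13). In 4 groups with the animal as a replicate block 128 were higher and 7 lower, and 127 and 7 with no replicate block; the genes called against normal liver without the block numbered 2798 and 1450 in Afp-high and 910 and 650 in Afp-low tumors, so the block changed no count by over 1.5 times. The 1076 genes higher in Afp-low tumors became 1981 without tumors 9 and 20. Leaving out tumors 9 and 20 together, tumor 26 with others, normal 27, expressed sex as covariate and unnamed clusters were chosen after seeing the data.

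With array weights the sign turned for Zhx2 (-0.022), Zfhx3 (-0.020), Alb (-0.056) and Rian (-0.29). For tumor minus own normal liver, tumor 9 included, it turned for Zhx2 (-0.073), Afm (0.14), Rian (-0.64), Mup3 (0.66), Cyp2c50 (0.14) and C8a (0.24). Without tumor 9 it turned for Alb (-0.12) and Rian (-0.025), without tumors 9 and 20 for Zfhx3 (-0.021), Alb (-0.12) and Rian (-0.31), without tumors 26, 9 and those against their label for Alb (-0.10) and Rian (-0.069), and with 14 against 14 for Rian (-0.20). With 1 tumor left out the difference ran from -0.006 to 0.204 for Zhx2, from -0.122 to 0.252 for Alb and from -0.141 to 0.569 for Rian. The cause was not tested. Signal over background could not be examined.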

Other observations

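Genes that mark one sex in mouse liver were scattered between the sets. Of 16 female-biased genes 10 were below 0 in Afp-high minus Afp-low tumors, at a median of -0.45, and of 17 male-biased genes 11 were below 0, at a median of -0.16, with 0 called in either list. Of 16 periportal genes 10 were above 0, at a median of 0.36 that became -0.11 without tumor 9, and of 12 genes of gluconeogenesis and the urea cycle 10 were above 0, at a median of 0.55 that became 0.04 without it. Of 17 genes of cholesterol synthesis 6 were above 0, at a median of -0.05. Of 16 interferon response genes 8 were above 0, at a median of 0.01.

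The spread among tumors was similar in both sets: the median SD over genes was 0.28 in Afp-high and 0.29 in Afp-low tumors, or 0.20 in Afp-low tumors without tumors 9 and 20. The array labelled normal 27 had a value of Cyp11a1, a steroid synthesis gene, of 11.39 against 6.18 to 6.97 in the other 28 normal livers, and of Igf2 of 9.74 against 6.82 to 7.33.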
